A study of Rattus norvegicus with 15 samples.

Results

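Bdnf encodes brain-derived neurotrophic factor, and Ntrk2 encodes TrkB, its high-affinity receptor. All probe sets annotated to either gene were followed, each on its own, over 15 Affymetrix rat arrays of the subfornical organ. They were 7 of the 31099 probe sets on the array, 2 for Bdnf and 5 for Ntrk2, and they stand for 2 of the 14217 genes that had a probe set of their own. Bdnf was selected on its high signal in the water-deprived arrays in earlier results of these data, so its comparisons of water deprivation with either other group are given as descriptions, with no test. Its comparison of food deprivation with control, and every comparison of Ntrk2, were tested.

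The animals were male Sprague Dawley rats aged 10 to 12 weeks, without a transgene or other genetic change in the labels. The groups were water deprivation, food deprivation and untreated control, with 5 arrays each. Every array carried RNA pooled from the subfornical organs of 5 rats, so that 25 rats stand behind each group and the spread is one between pools. A treatment protocol, 48 h without food, is recorded for the food-deprived samples alone, whereas the design text, taken at its word, applies 48 h without food to all conditions. How long water was withheld is not stated in the labels.

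The subfornical organ senses angiotensin II, sodium and osmolality directly from the blood, since it lacks a complete blood-brain barrier. Neurons make BDNF as a precursor, pro-BDNF, which is cleaved by furin and prohormone convertases inside the cell or by plasmin outside it. Mature BDNF binds TrkB, which signals through the MAP kinase, phospholipase C and PI3 kinase routes, while the precursor binds the sortilin and low-affinity neurotrophin receptors. Transcription of Bdnf starts at several promoters, some of which respond to neuronal activity through CREB and related factors. TrkB exists in forms with and without the kinase domain, and astrocytes make mainly the form without it. Which of these forms each Ntrk2 probe set reads is not given in the sources used here.

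In the RefSeq annotation of the rat build GRCr8, Bdnf lies on chromosome 3 from 116619633 to 116670212 with 11 transcripts, and Ntrk2 on chromosome 17 from 5560558 to 5875899 with 14 transcripts. RefSeq promoter windows of 300 bases, from 250 bases before to 50 after an annotated start, were matched for Bdnf at 6 starts, of which the fifth and sixth windows overlap. The windows were searched on both strands for the full cyclic AMP response element TGACGTCA, its shorter core CGTCA and the E-box CACGTG, which are motifs bound by CREB and by bHLH factors. The full element was in none of the 6 Bdnf windows, against 1.83% of all 33469 rat windows. The core was in 1 of the 6, against 21.2% of all windows, and the E-box in 1 of the 6, against 6.42%. Both windows that hold a match are shown in full, since they locate the searched letters relative to the start, with the match in capitals and the sequence read 5′ to 3′ on the plus strand. In the second window, chr3:116620585-116620884, the E-box lies 19 bases after the start at 116620835, and in the fourth, chr3:116637608-116637907, the core lies 35 bases before the start at 116637858. A match is a description of the letters and not a bound site, and the files do not tell which start was used.
Bdnf window 2: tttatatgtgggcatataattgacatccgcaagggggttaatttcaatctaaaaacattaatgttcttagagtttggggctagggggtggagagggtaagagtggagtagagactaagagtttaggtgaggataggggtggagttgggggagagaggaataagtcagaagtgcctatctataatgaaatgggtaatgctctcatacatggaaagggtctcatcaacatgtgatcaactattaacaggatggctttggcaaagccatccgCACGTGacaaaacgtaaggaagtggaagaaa
Bdnf window 4: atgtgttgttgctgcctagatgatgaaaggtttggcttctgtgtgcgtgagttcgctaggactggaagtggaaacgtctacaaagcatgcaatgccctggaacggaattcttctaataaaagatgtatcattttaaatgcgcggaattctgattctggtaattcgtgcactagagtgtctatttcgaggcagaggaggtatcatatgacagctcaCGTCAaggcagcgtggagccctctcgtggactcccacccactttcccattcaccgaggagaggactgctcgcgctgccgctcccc

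The tissue label was checked against its markers. Agtr1a, the angiotensin II receptor of the organ, had signals of 147 to 416 in water deprivation, 143 to 186 in food deprivation and 54.4 to 279 in control. Casr, the calcium-sensing receptor, had 63.1 to 176 in water deprivation, 25.7 to 51.3 in food deprivation and 32.6 to 77 in control. Calcr, the calcitonin receptor, had 179 to 487 in water deprivation, 171 to 243 in food deprivation and 166 to 306 in control. Npr1, Slc17a6 and Scn7a, the other tested markers of the organ, had log2 differences of water deprivation from control of 0.54, 0.028 and -0.21. Over the 6 tested markers of the organ, the median log2 difference of water deprivation from control was 0.59. None of them passed, beside 0.00869% of all tested genes. In a fit with the array set, described next, as a term it was 0.98, and Casr passed (log2 difference 1.35, limma adjusted p = 0.0227), though not without water-deprived array 3 (1.46, limma adjusted p = 0.107). Agtr1b and Nos1 fell below the filter on dim probe sets. The arrays fall into sets by the 5′/3′ signal ratio of the Actb and Gapdh control probe sets, a measure related to RNA integrity. Food-deprived arrays 1 to 5 and water-deprived arrays 1 and 2 form a high set of 7 (mean log2 ratio -0.86 to -0.71), and controls 1 to 5 with water-deprived arrays 3 to 5 form a low set of 8, from -2.81 to -1.24. A difference between food deprivation and control therefore cannot be told apart from one between the sets.

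Water-deprived array 3 stood apart from the rest and had the lowest 5′/3′ ratio (-2.81). The summed signal of 13 markers of forebrain excitatory neurons was 4749 there, against 361 to 939 on the other 14 arrays, and 9 of the 13 markers had their highest value there. Nrgn, a postsynaptic calmodulin-binding protein, reached 1648 on it, against at most 446 elsewhere, and Prox1, a transcription factor of dentate granule cells, reached 520, against at most 133. Ntf3, which encodes neurotrophin-3, a ligand of the same family, was 274 on that array and at most 5.48 on all others. The summed signals of oligodendrocyte (5583) and choroid plexus markers (4170) were lowest there, against 6129 to 19528 and 6219 to 28727 on the other 14. Its values are set beside the results it touches, and its part in them was not tested.

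Bdnf was higher in every water-deprived array than in every other array by one of its probe sets, and the other probe set showed little of that. Probe set 1368677_at had signals of 101, 91.0, 370, 122 and 185 in water-deprived arrays 1 to 5. Its signals in food-deprived arrays 1 to 5 were 10.3, 14.1, 18.3, 31.8 and 18.8, and in controls 1 to 5 they were 38.8, 90.7, 30.4, 23.9 and 4.46. The food-deprived arrays lay inside the control range, and the water-deprived arrays lay above both, but by a narrow gap to the controls, since the lowest water-deprived array (91.05) lay just above control 2 (90.69). The second-highest control was only 38.8, so control 2 alone came near the water-deprived range. The means were 174 ± 116 in water deprivation, 18.7 ± 8.14 in food deprivation and 37.6 ± 32.2 in control (SD, n = 5 each).

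On the log2(signal + 16) scale, on which an offset of 16 damps the differences of dim probe sets, 1368677_at was higher in water deprivation than in control by 1.85 (3.60-fold), and higher than in food deprivation by 2.31 (4.95-fold). These differences are the values that led to the choice of the gene. Among all tested probe sets, 0.373% had water-deprived arrays entirely above the controls and 1.47% had them entirely above the food-deprived arrays. Without water-deprived array 3, which carried the forebrain markers and the highest Bdnf signal, the differences were 1.55 (2.92-fold) against control and 2.01 (4.02-fold) against food deprivation. The other 4 water-deprived arrays had forebrain marker sums of 428 to 575, inside the range of the other groups, and Bdnf signals of 91.0 to 185. Control 2, the highest control for Bdnf, had the highest forebrain marker sum of the remaining arrays (939) and the highest neuronal marker sum of all 15 (17133). Its astrocyte (20609), oligodendrocyte (19528) and microglia (3578) marker sums were also the highest of all 15. Its choroid plexus sum (6219) was the lowest after that of water-deprived array 3. The markers of the organ itself had a summed signal of 935 to 1879 in water deprivation, 994 to 1592 in food deprivation and 667 to 1732 in control, so that the groups overlapped. That sum leans on Slc17a6, which gave 1358 of the 1732 on control 2. Agtr1a, Casr, Calcr and Npr1 were each higher on water-deprived arrays 3 to 5 than on every food-deprived and control array. Slc17a6 and Scn7a had their highest values in control (1358 and 90.6), against at most 825 and 58.5 in water deprivation. The part of these markers in the Bdnf values was not tested.

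Within the low set, water-deprived arrays 3 to 5 averaged 226 and the 5 controls 37.6, a log2 difference of 2.24 (4.72-fold), or 1.83 (3.56-fold) without array 3. Within the high set, water-deprived arrays 1 and 2 averaged 96.1 and the 5 food-deprived arrays 18.7, a log2 difference of 1.72 (3.30-fold). Since Bdnf was chosen for water-deprived arrays above all others, its order inside each set follows from that choice. The water-deprived arrays of the high set were themselves lower than those of the low set, by 0.98 on the log2 scale. A tissue pool cannot tell more RNA per cell from more cells that make it.

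**Figure D1:**
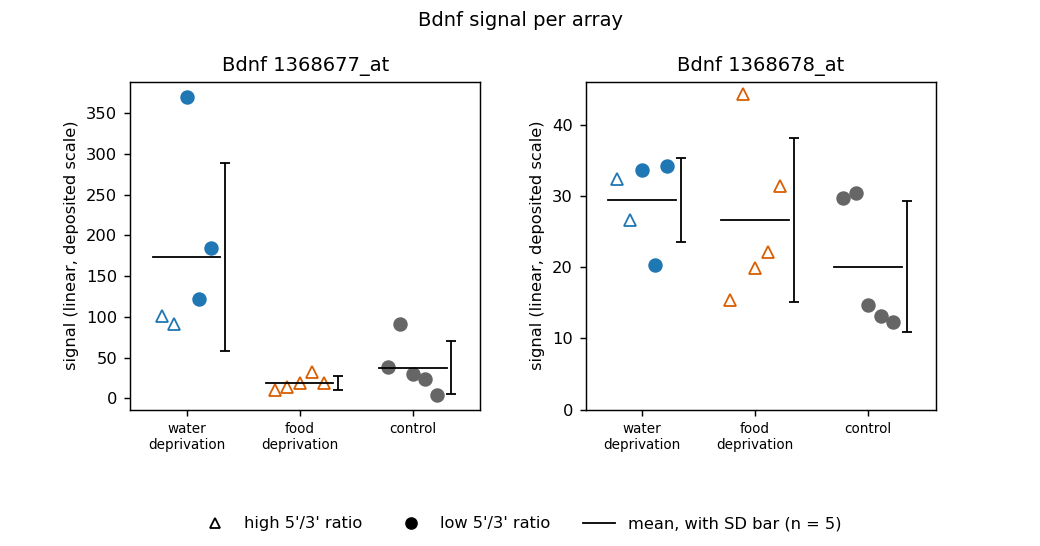
Signal of the 2 Bdnf probe sets on each array (linear scale), by group, with open triangles for arrays of the high and filled circles for arrays of the low 5′/3′ set, a line at the mean and an SD bar (n = 5). For 1368677_at the water-deprived arrays lie from 91.0 to 370, above all food-deprived and control arrays, and for 1368678_at the groups overlap.

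The second Bdnf probe set, 1368678_at, was dim in all groups. Its signals were 32.4, 26.7, 33.8, 20.4 and 34.2 in water-deprived arrays 1 to 5, 15.4, 44.4, 19.9, 22.2 and 31.5 in food-deprived arrays 1 to 5, and 29.8, 30.5, 14.7, 13.1 and 12.3 in controls 1 to 5. The groups overlapped, with food-deprived array 2 the highest of the 15 and 3 of the 5 water-deprived arrays above the highest control. Water deprivation exceeded control by 0.36 and food deprivation by 0.12 on the log2 scale, against 1.85 and 2.31 at the other probe set. Across arrays the probe sets varied together in the low set (r = 0.81, n = 8, and 0.77 without water-deprived array 3, n = 7) and hardly in the high set (r = 0.20, n = 7), and the points share arrays and groups. The files do not say which Bdnf transcripts either probe set reads.

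Food deprivation and control did not differ detectably for Bdnf. For 1368677_at the food-deprived arrays lay inside the control range, 4 of 5 of them below the control mean on the log2 scale, with a log2 difference of -0.46 (SE 0.38, 95% interval -1.27 to 0.36, limma adjusted p = 0.484, 5 arrays against 5). For 1368678_at the log2 difference was 0.24 (SE 0.19, limma adjusted p = 0.461). Of all probe sets tested in this comparison, 8.53% passed, and of the 2 for Bdnf none did. With the array set as a term, the 1368677_at difference was 0.52 (SE 0.62, limma adjusted p = 0.814), opposite in sign to the fit on groups alone. The order of the group levels at 1368677_at was thus water deprivation, control, food deprivation, and the neighbours control and food deprivation were not separated.

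Ntrk2 gave no probe set that passed the test in any of the 3 comparisons. In water deprivation against control all 5 log2 differences were below 0, with a median of -0.22, beside a median of 0.0023 over all probe sets tested, and none of the 5 passed, where 0.0046% of all passed. In food deprivation against control 3 were below and 2 above 0, with a median of -0.16 beside 0.046 over all, and again none passed, where 8.53% of all did. Against food deprivation, water deprivation gave 3 below and 2 above 0, with a median of -0.058 beside -0.042 over all, and none passed, where 0.152% of all passed. At an unadjusted p below 0.05, 1412, 5715 and 3427 probe sets were counted in these comparisons in the same order.

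Probe set 1383135_at had the highest Ntrk2 signal. Its values were 945, 914, 1504, 1452 and 1357 in water-deprived arrays 1 to 5, 1379, 1319, 1232, 1293 and 1084 in food-deprived arrays 1 to 5, and 1407, 1496, 1470, 1484 and 1214 in controls 1 to 5. Water-deprived arrays 1 and 2 were below every other array, while arrays 3 to 5 lay within or just above the control range. The log2 differences were -0.22 for water deprivation against control (SE 0.14, 95% interval -0.51 to 0.066, limma adjusted p = 0.760) and -0.16 for food deprivation against control (SE 0.14, limma adjusted p = 0.478). Between water and food deprivation it was -0.058 (limma adjusted p = 0.873).

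Probe set 1397246_at showed the same split. Its signals were 712, 698, 1292, 1290 and 1208 in water-deprived arrays 1 to 5, 1054, 924, 843, 1026 and 771 in food-deprived arrays 1 to 5, and 1240, 1408, 1290, 1366 and 1092 in controls 1 to 5. All 5 food-deprived arrays lay below the lowest control, with a log2 difference of -0.47 (SE 0.17, unadjusted p = 0.0154, limma adjusted p = 0.0980). The difference for water deprivation against control was -0.34 (SE 0.17, limma adjusted p = 0.752), and here it was arrays 1 and 2 that lay below every control. For 1368972_at the water-deprived signals were 166, 137, 227, 212 and 232, the food-deprived ones 209, 235, 223, 257 and 176, and the control ones 190, 273, 234, 311 and 122. These groups overlapped, with log2 differences of -0.16 for water deprivation against control (limma adjusted p = 0.885) and 0.015 for food deprivation against control (limma adjusted p = 0.975).

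These 3 Ntrk2 probe sets, 1383135_at, 1397246_at and 1368972_at, correlated with each other from 0.857 to 0.931 in the low set (n = 8) and from 0.850 to 0.947 in the high set (n = 7). In each of the 3, water-deprived arrays 1 and 2 were below water-deprived arrays 3 to 5 and also below all 5 food-deprived arrays, with which they share the high set. Between the water-deprived arrays of the high set and those of the low set the log2 difference was -0.62, -0.83 and -0.52 in the order just given. Inside the high set, water deprivation was lower than food deprivation by 0.43 at 1383135_at on the log2 scale, while inside the low set water deprivation and control differed by 0.026. With the array set as a term, water deprivation minus food deprivation at 1383135_at was -0.43 (SE 0.10, unadjusted p = 0.000908, limma adjusted p = 0.330), where 0.0% of all probe sets passed. That comparison rests on 2 water-deprived arrays.

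Some marker sums also separated water-deprived arrays 1 and 2 from arrays 3 to 5, though not all in the direction of Ntrk2. The choroid plexus sum went the other way, with 21545 to 28727 on arrays 1 and 2 and 4170 to 18079 on arrays 3 to 5. The hypothalamic peptide sum was 378 to 455 on arrays 1 and 2 and 1076 to 3742 on arrays 3 to 5, and the sum of the subfornical organ markers was 935 to 1397 and 1617 to 1879. The sums of 13 astrocyte markers (12474 to 15524, and 14481 to 18676) and of 20 neuronal markers (7962 to 11726, and 9673 to 14789) overlapped between them. So did the oligodendrocyte (10808 to 14873, and 5583 to 12395) and microglia sums (1742 to 2418, and 1883 to 3086). The endothelial (1177 to 1323, and 1233 to 1375) and forebrain excitatory sums (428 to 575, and 453 to 4749) overlapped too. The part of cell composition in the Ntrk2 split was not tested.

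**Figure D2:**
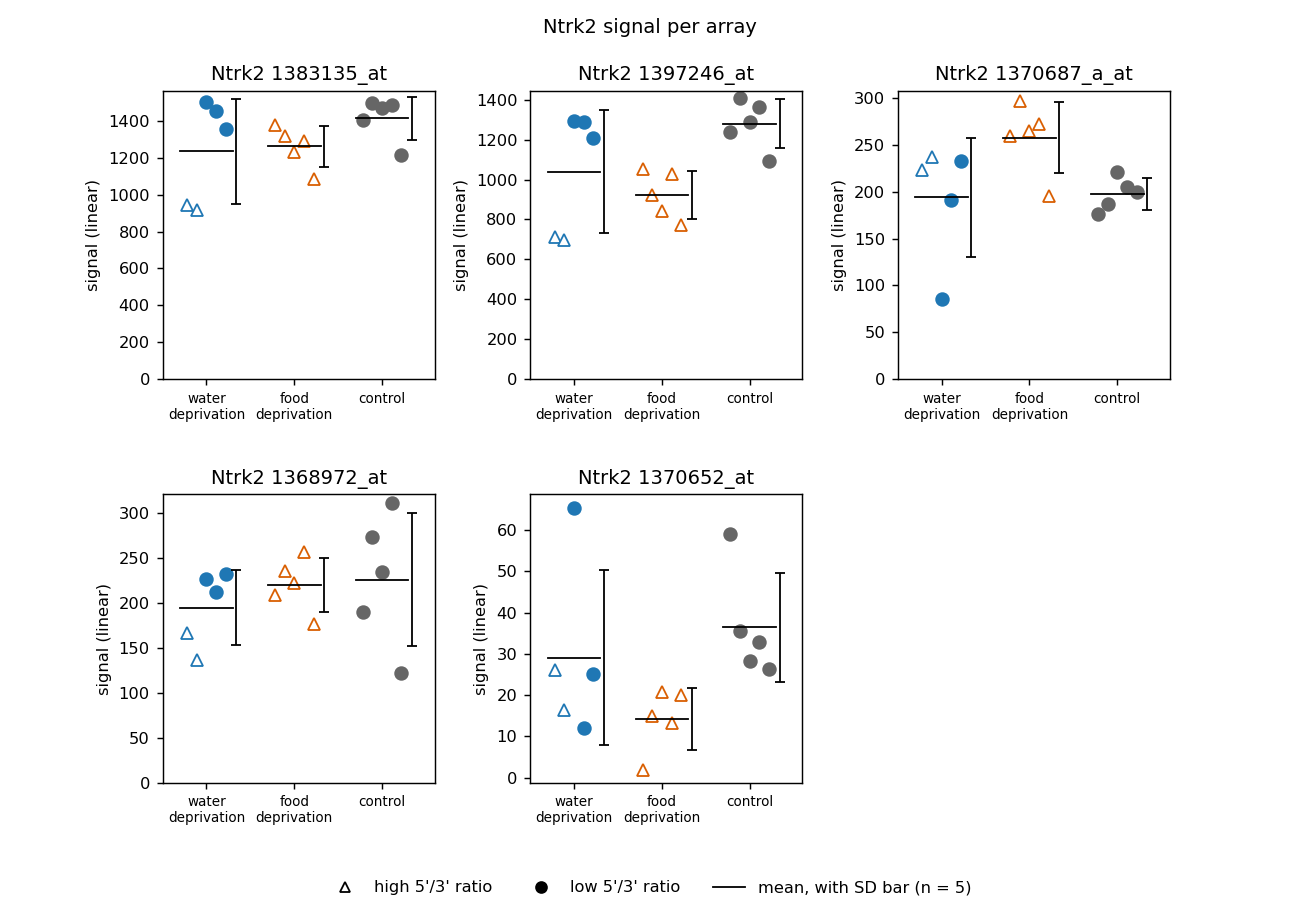
Signal of the 5 Ntrk2 probe sets on each array (linear scale), by group, with open triangles for the high and filled circles for the low 5′/3′ set, a line at the mean and an SD bar (n = 5). At 1383135_at, 1397246_at and 1368972_at the 2 water-deprived arrays of the high set lie below the other 3 water-deprived arrays and below all food-deprived arrays.

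The remaining Ntrk2 probe sets departed from those 3 and from each other. At 1370687_a_at the signals were 223, 237, 85.4, 191 and 233 in water-deprived arrays 1 to 5, 259, 297, 264, 273 and 195 in food-deprived arrays 1 to 5, and 176, 187, 221, 205 and 199 in controls 1 to 5. Of the food-deprived arrays, 4 of 5 were above the highest control, with a log2 difference of 0.35 (SE 0.20, limma adjusted p = 0.295). Water-deprived array 3 was far below the rest at this probe set, and water deprivation minus control was -0.095 with it (limma adjusted p = 0.935) and 0.15 without it (limma adjusted p = 0.548). Without that array, whose spread enters the common error, food deprivation minus control was unchanged in size but passed (limma adjusted p = 0.0459), in a fit where 13.1% of all probe sets passed.

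At 1370652_at, the dimmest of the 5, the signals were 26.0, 16.4, 65.5, 12.0 and 25.0 in water-deprived arrays 1 to 5, 1.94, 14.8, 20.8, 13.2 and 20.1 in food-deprived arrays 1 to 5, and 59.0, 35.5, 28.2, 32.7 and 26.4 in controls 1 to 5. All 5 food-deprived arrays lay below every control. The log2 difference was -0.81 (SE 0.26, unadjusted p = 0.0075), with a limma adjusted p of 0.0673 over all 15 arrays and of 0.0202 without water-deprived array 3. Of the 5 Ntrk2 probe sets, 2 thus had food-deprived arrays entirely below the controls, where 5.61% of all probe sets did so. When only the 10 food-deprived and control arrays were fitted, 1397246_at (limma adjusted p = 0.00839), 1370652_at (0.0202) and 1370687_a_at (0.0461) all passed, the last of them higher and the others lower in food deprivation, in a fit where 19.3% of all probe sets passed.

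Those food-deprivation differences changed with the array set as a term. The log2 difference at 1397246_at was then 0.36 (limma adjusted p = 0.571), at 1383135_at 0.46 (limma adjusted p = 0.485), at 1368972_at 0.54 (limma adjusted p = 0.640), at 1370687_a_at -0.16 and at 1370652_at -0.51 (limma adjusted p = 0.747). In that fit 0.0% of all probe sets passed for food deprivation against control, and 0.0276% for water deprivation against control. Food deprivation and the array set cannot be told apart without the water-deprived arrays. The sum of 8 hypothalamic peptide markers also separated the groups, with 316 to 352 in food deprivation and 1072 to 3764 in control, and its part in these differences was not tested.

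**Figure D3:**
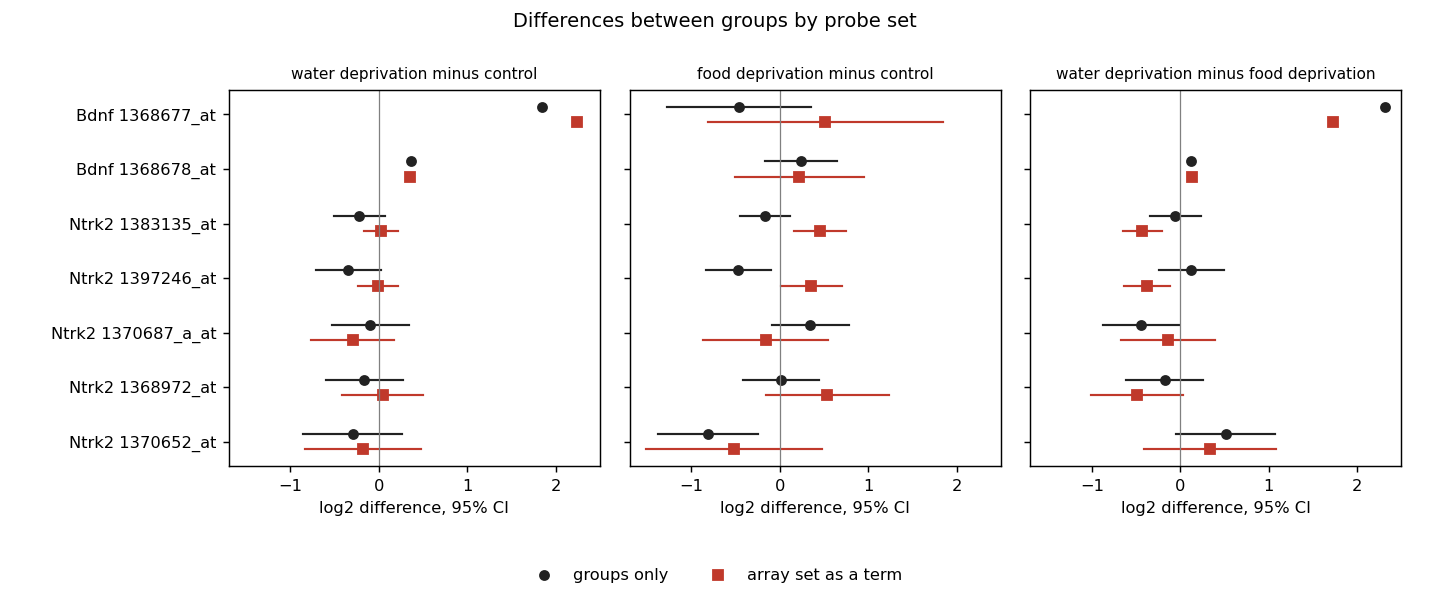
Log2 differences on the log2(signal + 16) scale by probe set, for the 3 comparisons, from the fit on groups alone (circles) and with the array set as a term (squares), with 95% intervals for the tested comparisons and points alone for Bdnf in both water deprivation comparisons. At Ntrk2 1397246_at, food deprivation minus control is -0.47 in one fit and 0.36 in the other.

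Among the neurotrophin ligands, Ntf3 and Ntf4, which encode neurotrophin-3 and neurotrophin-4, fell below the filter and were not tested. Of 9 listed receptor and co-receptor genes, 7 were tested, and none of them passed in any comparison. Of all tested genes, 0.00869% passed in water deprivation against control and 5.73% in food deprivation against control. Between water and food deprivation 0.0956% passed, so that few or none would be counted in a list of this size. Ntrk3, the neurotrophin-3 receptor, had signals of 60.4, 47.6, 156, 112 and 70.4 in water-deprived arrays 1 to 5 and 97.2, 168, 87.3, 89.1 and 43.7 in controls 1 to 5, a log2 difference of -0.11 (limma adjusted p = 0.946). Its food-deprived arrays had 42.2 to 80.2, a log2 difference from control of -0.47 (limma adjusted p = 0.320). Sort1, the pro-BDNF co-receptor sortilin, differed by -0.11 in water deprivation and 0.033 in food deprivation, each against control on the log2 scale. Its other tested probe set gave 0.48 in food deprivation against control. Ngfr, the low-affinity receptor, was below the filter.

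Among the genes that cleave or package pro-BDNF, 10 of 15 were tested. Cpe, carboxypeptidase E, which trims and sorts prohormones, rose 1.38-fold in food deprivation (log2 difference 0.47, SE 0.13, limma adjusted p = 0.040). All 5 of its food-deprived arrays, at 3821 to 5643, lay above the controls at 3082 to 3271, as was so for 9.84% of all probe sets tested. Water-deprived arrays 1 and 2, which share the high set, had 4272 and 4967. None of the 10 passed in either water deprivation comparison, where 0.00869% (against control) and 0.0956% (against food deprivation) of all tested genes did. Furin, a convertase of pro-BDNF, differed from control by -0.092 in water deprivation and -0.16 in food deprivation on the log2 scale, and Plat, the plasminogen activator, by -0.26 and -0.17. Pcsk1, prohormone convertase 1, had no probe set of its own.

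TrkB signalling had 34 of 48 listed genes tested. Gsk3b, a kinase restrained by Akt, fell 2.58-fold in food deprivation (log2 difference -1.37, SE 0.27, limma adjusted p = 0.008), with 31.9, 55.1, 21.8, 24.6 and 24.0 in food-deprived arrays 1 to 5 and 137, 120, 108, 84.0 and 76.7 in controls 1 to 5. Water-deprived arrays 1 and 2, of the high set like the food-deprived ones, had 41.0 and 38.7, also below every control. Rps6ka5, a kinase that phosphorylates CREB, fell 1.97-fold in food deprivation at its representative probe set (log2 difference -0.98, SE 0.24, limma adjusted p = 0.025), while its other tested probe set gave a log2 difference of 0.46. None of the 34 passed in either water deprivation comparison, beside 0.00869% (against control) and 0.0956% (against food deprivation) of all tested genes.

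Regulators of Bdnf transcription had 17 of 20 genes tested. Creb1, which encodes CREB, fell 1.46-fold in food deprivation (log2 difference -0.55, SE 0.10, limma adjusted p = 0.006). All 5 of its food-deprived arrays, from 82.6 to 100, were below the controls, from 129 to 149, as was so for 5.61% of all probe sets tested. Its water-deprived arrays had 102 and 93.4 on arrays 1 and 2, of the high set, and 129, 103 and 135 on arrays 3 to 5. They differed from control by -0.28 on the log2 scale (limma adjusted p = 0.719). Npas4, an activity-induced transcription factor, had no probe set of its own. With the array set as a term, the food-deprivation differences of Gsk3b, Rps6ka5, Creb1 and Cpe were -0.23, -0.70, -0.27 and -0.060, and none of them passed.

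Genes that respond to TrkB or neuronal activity had 15 of 24 tested. In water deprivation against control none of them passed in the fit on groups alone, beside 0.00869% of all tested genes. Of the 15, 13 lay above 0 there, with a median log2 difference of 0.18, where 49.9% of all 11510 tested genes lay above 0 and their median was -0.00050. This count and median include water-deprived array 3, on which Vgf, Fos, Egr1 and Arc, though not Homer1, had their highest value of all arrays. In food deprivation against control 7 of the 15 lay above 0, with a median of -0.0020, where 54.5% of all genes lay above 0 with a median of 0.027. The medians with the array set as a term were 0.18 in water deprivation (14 of 15 above 0) and 0.28 in food deprivation (9 of 15 above 0), each against control. Both comparisons share the control arrays.

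Vgf, a secreted neuropeptide precursor induced by BDNF, had 247, 262, 1052, 667 and 582 in water-deprived arrays 1 to 5, 123, 90.4, 125, 100 and 100 in food-deprived arrays 1 to 5, and 169, 240, 173, 289 and 114 in controls 1 to 5. It rose 4.08-fold in water deprivation against food deprivation (log2 difference 2.03, SE 0.33, limma adjusted p = 0.030), and the groups did not overlap, as was so for 1.47% of all probe sets tested in this direction. That difference was 1.14 with the array set as a term (limma adjusted p = 0.324), and without water-deprived array 3 it was 1.76 (limma adjusted p = 0.0728). No gene of the neurotrophin lists, Vgf included, passed this comparison when any one of food-deprived arrays 1 to 4, water-deprived arrays 3 to 5 or control 1 was left out. Against control the log2 difference was 1.30 (limma adjusted p = 0.523), with 3 of 5 water-deprived arrays above every control, and 1.89 with the array set as a term (limma adjusted p = 0.015). Without water-deprived array 3 that array-set value was 1.65 and did not pass (limma adjusted p = 0.0930). Fos, an immediate early transcription factor, had 72.0, 59.3, 129, 99.7 and 86.7 in water-deprived arrays 1 to 5, 41.8 to 54.5 in food-deprived arrays and 44.4, 85.8, 51.2, 48.3 and 28.0 in controls 1 to 5. Its log2 difference for water deprivation against control was 0.66 (limma adjusted p = 0.672), and control 2 was again the highest control, as for Bdnf. Egr1, Homer1 and Arc, also activity-induced, differed from control in water deprivation by 0.55, 0.22 and 0.013 on the log2 scale. Without water-deprived array 3, where Egr1 was 195 against at most 95.8 elsewhere, these were 0.32, 0.25 and -0.12, and Fos was 0.53.

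Over the 83 tested genes of these lists, of 119 listed, none passed in water deprivation against control, where 0.00869% of all tested genes did. In food deprivation against control 1 was higher, beside 3.12% of all tested genes, and 3 were lower, beside 2.62%, and the share of the lists that passed, 4.82%, was close to the 5.73% of all genes. In water deprivation against food deprivation 1 was higher, beside 0.0956% of all genes. In the fit with the array set 1 gene, Vgf, was higher in water deprivation than in control, beside 0.0434% of all genes, and without water-deprived array 3 none was, beside 0.0% of all genes.

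**Figure D4:**
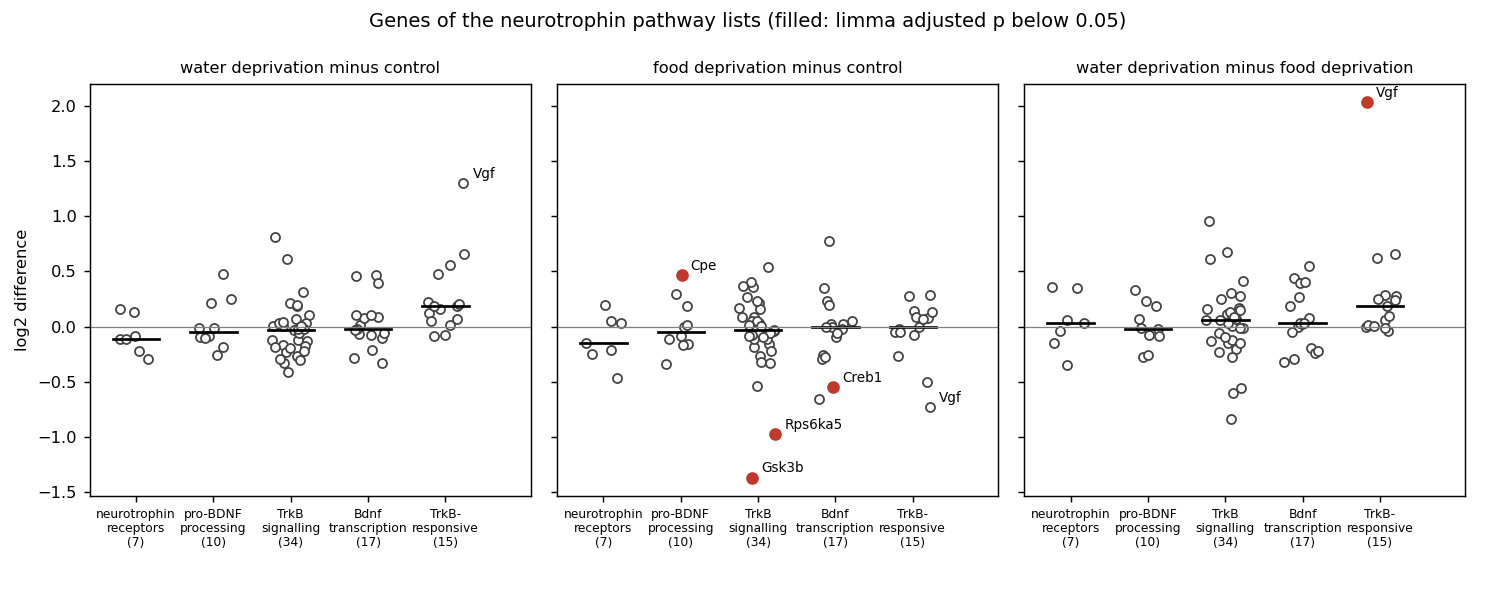
Log2 differences of the 83 tested genes of the neurotrophin lists in the 3 comparisons, 1 point per gene, with a line at each list's median and filled points for a limma adjusted p below 0.05. Cpe is higher and Gsk3b, Rps6ka5 and Creb1 are lower in food deprivation against control, and Vgf is higher in water deprivation against food deprivation.

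The genes whose pattern was most like that of Bdnf 1368677_at were ranked by the smaller of their correlations of log2 values over the 8 low-set and over the 7 high-set arrays, among 11400 genes with a median of -0.41. They were Vgf (0.90), Fos (0.88), Arhgap35 (0.85), a GTPase-activating protein, Gsto1 (0.84), a glutathione transferase, and Arpc3 (0.82), a subunit of the actin-nucleating Arp complex. The points share arrays, groups and water-deprived array 3, so these are descriptions. Over the 7 low-set arrays without array 3 the correlations with Bdnf were 0.86 for Vgf, 0.95 for Fos, 0.93 for Arhgap35, 0.75 for Gsto1 and 0.76 for Arpc3. Gsto1 had 742, 701, 1158, 739 and 839 in water-deprived arrays 1 to 5, all above the other 10 arrays, which lay between 516 and 659. Of all probe sets tested, 0.373% had water-deprived arrays entirely above the controls and 1.47% entirely above the food-deprived arrays. Gsto1 was picked for its likeness to Bdnf, itself chosen for its level on these arrays, so its separation is no independent result. Arhgap35 was 264 to 349 in water deprivation, 237 to 249 in food deprivation and 255 to 288 in control.

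For Ntrk2 1383135_at the most alike genes, with a median of -0.26 over all, were Pcsk1n (0.94), which encodes the convertase inhibitor proSAAS, Flywch1 (0.93), a zinc finger protein, Ssh2 (0.93), a cofilin phosphatase, Bcan (0.93), the brain proteoglycan brevican, and Apc2 (0.92), a relative of the APC tumour suppressor. Pcsk1n had 383 to 1462 in water deprivation, 536 to 1026 in food deprivation and 933 to 1447 in control. The correlation of Bdnf 1368677_at with Ntrk2 1383135_at was 0.50 in the low set, 0.41 there without water-deprived array 3, and -0.88 in the high set. In the high set the 2 water-deprived arrays were highest for Bdnf and lowest for Ntrk2. Since Bdnf was chosen for its level on water-deprived arrays, these values cannot decide whether ligand and receptor follow each other.

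**Figure D5:**
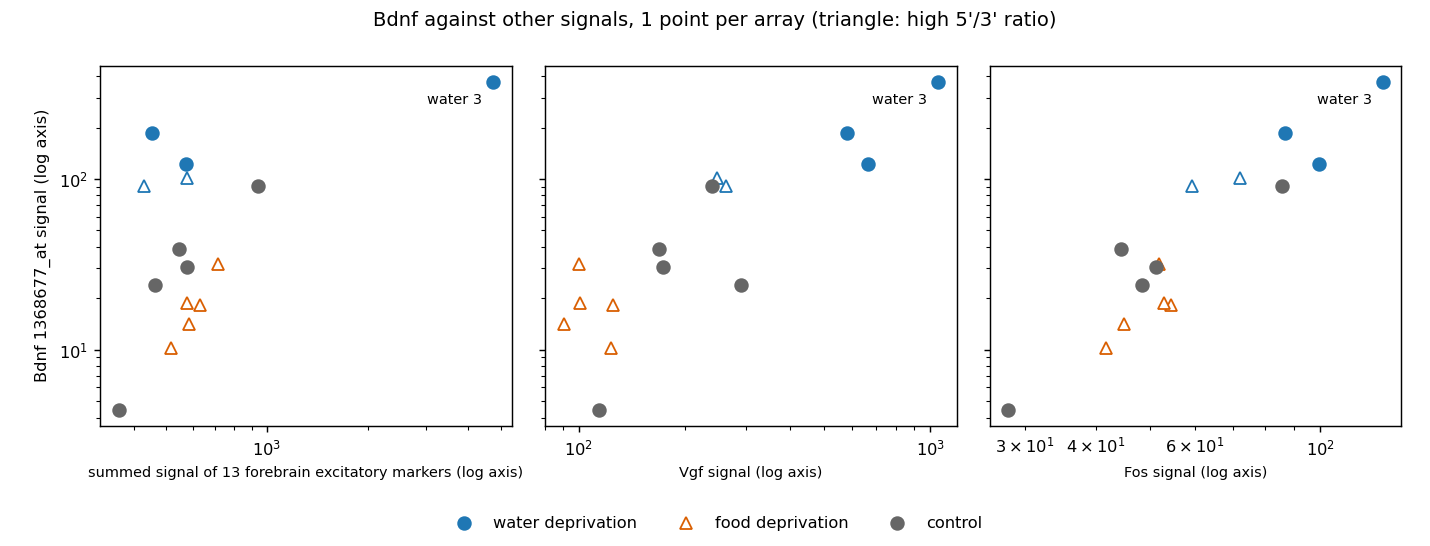
Bdnf 1368677_at signal against the summed signal of 13 forebrain excitatory markers, the Vgf signal and the Fos signal (all axes log), 1 point per array, coloured by group, with triangles for the high 5′/3′ set. Water-deprived array 3 has a marker sum of 4749 and the highest Bdnf, Vgf and Fos signals, and the other 4 water-deprived arrays have marker sums of 428 to 575.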

How the data were processed

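RNA from pooled subfornical organs was amplified and labelled with biotin, per the labels, and read on 15 arrays. The authors deposited 1 linear signal intensity for each probe set, made with GCOS 1.2 per the submitters' processing notes. Tested on the table, each array has a trimmed mean of 100.02 to 100.03, so the deposited intensity was scaled per array, and it was used without further normalization. Probe background correction is not given in the sources used here. Arrays give no counts, and their number limits the precision.

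Of 31042 probe sets that are not controls, 21729 had a mean log2(signal + 16) above the 30th percentile (5.11) and were tested, all 7 of Bdnf and Ntrk2 included. Symbols came from the platform annotation, updated through RefSeq: 20826 probe sets had 1 gene symbol, 436 several and 9780 none. Where a listed gene had several probe sets of its own, the one with the highest mean stands for it. Tests used R 4.3.3 and limma 3.58.1 with a variance trend, on the 3 groups together, two-sided, with Benjamini-Hochberg adjustment over all probe sets tested at 0.05. A further fit included the array set, with 11 in place of 12 residual degrees of freedom. The fits were tested on simulated data. Figures were drawn in matplotlib 3.10.9 under Python 3.11.15, and tables made in pandas 2.3.3.

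The genes, lists, tests and the split by 5′/3′ ratio at a mean log2 ratio of -1 were chosen with earlier results of these data known. Named genes are all probe sets of Bdnf and Ntrk2, list members that passed, a set of 18 ligands, receptors, convertases and activity-regulated genes, some of which are not reported here, and the 5 genes most alike to each. Alternatives changed normalization, offset, filter, arrays fitted, array set, block and single arrays.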

Additional observations from a re-analysis of the deposited data

Results flagged for a closer look

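Ntrk2 1370687_a_at was 85.4 on water-deprived array 3, far from the other 4 water-deprived arrays, which lay between 191 and 237. On the log2(signal + 16) scale its gap to the nearest of them was 0.778 of the group's whole range, above Dixon's critical value of 0.71 for 5 samples, while on the linear signals it was 0.694, below that value. Of 21 groups examined, 7 probe sets in 3 groups, this was the 1 value that stood out, and chance gives about 1 in 20. The same array had the forebrain marker sum of 4749 and the lowest 5′/3′ ratio.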

How the results depend on the processing

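Of 540 recomputed values of Bdnf and Ntrk2, 503 kept their direction and their side of the threshold or stayed within 1 SD. That count is no measure of robustness, since part of it was fixed in advance. It holds the water deprivation comparisons of Bdnf, on which the gene was chosen. It also holds fits that left out an array of neither compared group, where the difference cannot change. Median centring turned Ntrk2 1368972_at food deprivation minus control to -0.086 and Ntrk2 1383135_at water minus food deprivation to 0.035. An offset of 1 gave Bdnf 1368677_at 2.46 against control and 3.04 against food deprivation in water deprivation, and an offset of 64 gave 1.17 and 1.42. With the array set as a term, water deprivation minus control was 0.026 at Ntrk2 1383135_at and 0.046 at 1368972_at, food deprivation minus control was 0.52 at Bdnf 1368677_at, and at Ntrk2 1383135_at, 1397246_at and 1370687_a_at it was 0.46, 0.36 and -0.16, while 1397246_at water minus food deprivation was -0.37. An alternative chosen after seeing the data, the array set without water-deprived array 3, gave food deprivation minus control of 0.11 at Bdnf 1368677_at, 0.42 at Ntrk2 1383135_at and 0.34 at 1397246_at, water deprivation minus control of 0.090 at 1370687_a_at and 0.036 at 1368972_at, -0.37 at 1397246_at in water minus food deprivation, and 0 probe sets and 0 neurotrophin genes called in each comparison. The ratio as a covariate gave 0.13 for Bdnf, 0.028 for Ntrk2 1383135_at and -0.097 for 1370687_a_at in food deprivation minus control, and -0.087 at 1397246_at in water minus food deprivation. Ntrk2 1370652_at food deprivation minus control passed after quantile normalization (limma adjusted p = 0.039) and median centring (0.0492).

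The probe sets called in water deprivation against control numbered 1, and 3 without a filter, 0 with the filter at the 50th percentile, 0 in only the 10 arrays compared, 6 with the array set and 3 with the ratio as a covariate. In food deprivation against control 1854 were called, and 1119 with the stricter filter, 4183 in only 10 arrays, 0 with the array set and 139 with the ratio. In water against food deprivation 33 were called, and 106 after quantile normalization, 101 after median centring, 71 with the stricter filter and 0 in only 10 arrays, with the array set or with the ratio. Of the neurotrophin genes, 0, 4 and 1 were called in these comparisons. In the first the count was 1 without a filter and 1 with the array set, in the second 10 in only 10 arrays and 0 with the array set or ratio, and in the third 2 after median centring and 0 in only 10 arrays, with the array set or with the ratio. The cause of these shifts was not tested.

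Leaving out each array in turn gave 0 to 2, 807 to 2854 and 0 to 771 probe sets and 0, 2 to 5 and 0 to 3 neurotrophin genes in these comparisons, with 2854 and 0 probe sets in the last 2 without water-deprived array 3, 771 without array 1 and 807 without control 1. It gave Ntrk2 1383135_at water minus food deprivation from -0.14 to 0.041, 1368972_at food deprivation minus control from -0.17 to 0.14 and 1370687_a_at water deprivation minus control from -0.18 to 0.15. The replicate block left 0, 1254 and 20 probe sets called and changed no call of Bdnf or Ntrk2, whose food deprivation minus control was -0.46 and -0.16 (1383135_at) under it. Same-numbered arrays correlated from -0.361 to 0.366 in their deviations from the group means, with 3 of 15 pairs over 0.1. Those deviations still hold the split of the water-deprived arrays by array set, so they cannot decide whether the numbers pair the samples. The main fit took the samples as unpaired. Low signals limit 1370652_at and 1368678_at, whose fold changes the offset damps.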
